A study of Homo sapiens with 12 samples.

Results

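The HOXD cluster is a row of 9 homeobox genes on human chromosome 2 (GRCh38, 176087487 to 176190907, 103421 bp). The genes examined were HOXD13, HOXD12, HOXD11, HOXD10, HOXD9, HOXD8, HOXD4, HOXD3 and HOXD1, in this order along the chromosome, and were chosen by name from 19974 annotated protein-coding genes. Each was measured over its annotated span and 5 kb on either side, called its window below, together with the gene deserts on both sides of the cluster. The data come from KBM-7 cells with no treatment in the labels. KBM-7 is an established human line of chronic myeloid leukaemia origin, close to haploid, and as background carries chromosome 2 in a single copy. Chromatin immunoprecipitation and sequencing was done once for each of H3K27me3, H3K4me2, H3K4me3, H3K9ac, H3K27ac, H3K4me1, H3K79me2, H3K36me3 and H4K16ac, and 3 further samples were inputs, for 12 samples in all. By the labels H3K27me3 has an input of its own, H3K4me2 shares an input with H3K27ac, H3K4me1, H3K36me3 and H4K16ac, and H3K9ac shares one with H3K4me3 and H3K79me2.

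The deposited values are called intervals with a start and an end, and hold no read count or score. The depth of each library is therefore unknown, there was 1 library per mark, and no difference below could be tested against replicate error. An interval that is missing means that no call was made, which is not proof that the mark was absent. The intervals under the labels H3K36me3 and H4K16ac were identical, all 45639 of them on chromosomes 1 to 22 and X, and are treated as 1 set, which leaves 8 sets. H3K27me3 and H3K36me3/H4K16ac intervals lie on a grid of 500 bp and those of the other 6 sets on a grid of 150 bp, so edges are no finer than that. Fixed marker genes were set beside the label of the line. H3K4me3 lay in the windows of 10 of 11 genes of blood cells and their progenitors, GATA2, SPI1, RUNX1 and MYB among them and KIT excepted. It lay at 1 of 6 fibroblast genes (TWIST1), 2 of 5 epithelial genes (KRT8 and KRT18) and 0 of 5 neuronal genes, and H3K27me3 was at 1 blood, 6 fibroblast, 3 epithelial and 5 neuronal genes of these lists.

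HOX proteins are transcription factors that give cells their position along the body axis. The genes of a cluster are used in the order in which they stand, those at the HOXD1 end early and towards the head, and those at the HOXD13 end late, in the tail region, the limbs and the genitals. In cells that do not use them, Polycomb repressive complex 2 places H3K27me3 over the whole cluster, while the Trithorax-type methyltransferases place H3K4 methylation where the genes are used. H3K4me3 and H3K9ac are found at active promoters, H3K4me1 and H3K27ac at enhancers, and H3K79me2 and H3K36me3 over transcribed gene bodies.

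All 9 HOXD genes lay under H3K27me3, and all 9 had small patches of H3K4me2 in their windows without any H3K4me3. H3K27me3 covered 100% of the annotated span of each of the 9 genes and 92.1% to 100% of their windows. A window held H3K27me3 at 44.4% of all protein-coding genes and H3K4me2 at 78.2%, and the median cover over all genes was 0% and 6.37%. H3K9ac was found in the windows of 2 HOXD genes, HOXD13 and HOXD12, against 62.9% of all genes. H3K4me3 (58.4% of all genes), H3K27ac (10.9%), H3K4me1 (56.4%), H3K79me2 (47.6%) and H3K36me3/H4K16ac (56.3%) were each found at 0 of the 9. The windows of neighbouring HOXD genes overlap and the 9 share 3 H3K27me3 regions, so these counts are not 9 separate observations. Within the gene spans alone, without the 5 kb, H3K4me2 was at 5 of the 9 genes and H3K9ac at 1, and among regions at least as wide as the median of their set H3K4me2 was at 4 and H3K9ac at 0.

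**Figure D1:**
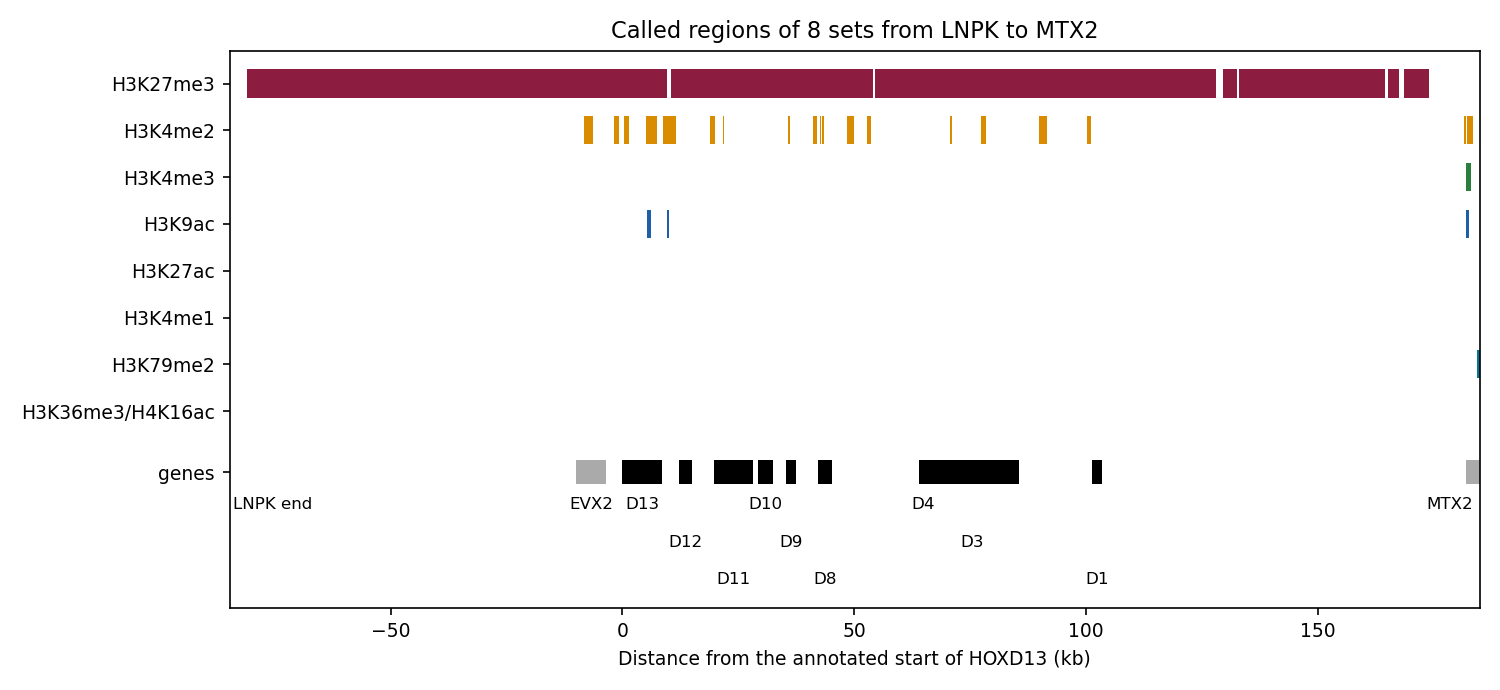
Called regions of the 8 sets (rows) from the end of LNPK to 3 kb into MTX2, with position given as distance from the annotated start of HOXD13 in kb, and HOXD genes as black bars, EVX2 and MTX2 as grey bars. H3K27me3 runs across the cluster with 2 breaks, 15 H3K4me2 regions lie in the cluster, H3K9ac is at the HOXD13 end, and H3K4me3 appears only at MTX2.

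The posterior genes HOXD13, HOXD12, HOXD11, HOXD10 and HOXD9 pattern the limbs and the lower trunk in the vertebrate embryo. HOXD13 (176087487 to 176095944), whose mutations cause malformed digits, had the most of both active marks. In its window of 18458 bp, H3K27me3 covered 17458 bp (94.6%), H3K4me2 7200 bp (39.0%) and H3K9ac 1350 bp (7.31%). HOXD12 (176099795 to 176102489) followed, with 11695 of 12695 bp under H3K27me3 (92.1%), 4145 bp under H3K4me2 (32.7%) and 600 bp under H3K9ac (4.73%), all of the H3K4me2 and H3K9ac outside its span. These were the only 2 members with less than full H3K27me3 cover of the window and the only 2 with H3K9ac. They are neighbours, and share both the break in H3K27me3 and the H3K9ac region between them.

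HOXD11 (176107280 to 176115679), which acts with HOXA11 in the forearm of the mouse, had H3K27me3 over all 18400 bp of its window and 1350 bp of H3K4me2 (7.34%). HOXD10 (176116778 to 176119937) had full H3K27me3 cover of 13160 bp and 600 bp of H3K4me2 (4.56%), all of it inside the neighbouring HOXD9. HOXD9 (176122719 to 176124937) had full H3K27me3 cover of 12219 bp and 1350 bp of H3K4me2 (11.05%), of which 600 bp lay inside the gene. The 5 posterior genes thus ranged from 4.56% to 39.0% in H3K4me2 cover.

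HOXD8 (176129705 to 176132695), in the middle of the cluster, had full H3K27me3 cover of 12991 bp and 3300 bp of H3K4me2 (25.4%) in 4 regions, 900 bp of it inside the gene. The anterior genes HOXD4, HOXD3 and HOXD1 are expressed from the hindbrain downwards in the embryo. HOXD4 (176151550 to 176153226) had the least H3K4me2, 176 bp or 1.51% of 11677 bp, and none inside the gene. HOXD3 (176152529 to 176173098), whose annotated span overlaps HOXD4, had 2198 of 30570 bp under H3K4me2 (7.19%). HOXD1 (176188668 to 176190907) had 1050 of 12240 bp (8.58%), all of it outside the span. All 4 of these genes were fully covered by H3K27me3.

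**Figure D2:**
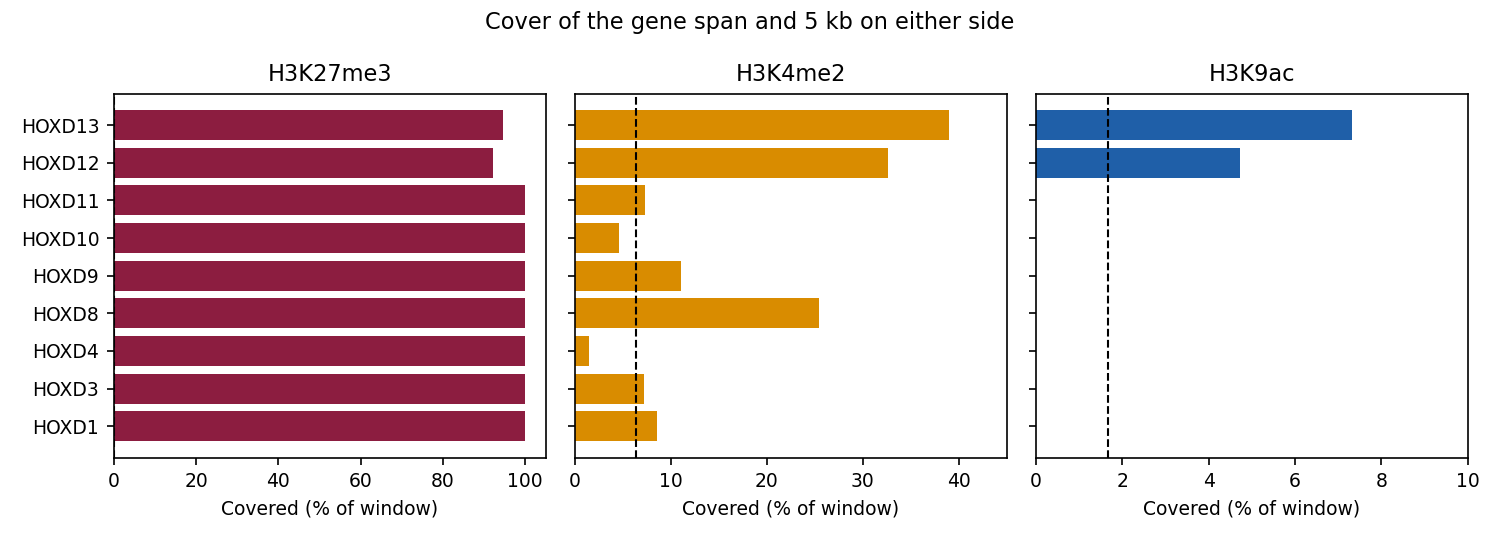
Percent of each HOXD gene's window (span and 5 kb on either side) covered by H3K27me3, H3K4me2 and H3K9ac, 1 library per mark, with the median over 19974 protein-coding genes as a dashed line (at 0% for H3K27me3). HOXD13, HOXD12 and HOXD8 stand highest in H3K4me2, with 39.0%, 32.7% and 25.4%, and HOXD13 and HOXD12 alone have H3K9ac.

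H3K4me2 was denser in the stretch from HOXD13 to HOXD8 than in the rest of the cluster. It covered 21.9% of the stretch from HOXD13 to the end of HOXD8 (9900 of 45209 bp, in 9 regions), 13.5% of the stretch between HOXD8 and HOXD4 (2550 of 18854 bp, 2 regions) and 10.7% from HOXD4 to HOXD1 (4200 of 39358 bp, 4 regions). This division of the cluster was chosen after the values were seen, and it places HOXD8, in the middle of the cluster, in the first stretch. Within that stretch H3K4me2 was uneven, covering 39.0% of the window of HOXD13 but 7.34% for HOXD11 and 4.56% for HOXD10. The 15 regions together made up 16650 bp, or 16.1% of the cluster, and were 300 to 2850 bp wide with a median of 1050 bp. Of the 15, 14 lay wholly inside H3K27me3. In the RefSeq promoter table, which has none for HOXD9 and includes non-coding genes, 10 lay within 1 kb of a transcription start and 6 held one. The only HOXD gene starts held were those of HOXD13 and HOXD11, and the others belonged to non-coding genes such as HAGLR and HOXD-AS2. In the whole genome, 4170 other H3K4me2 regions lay wholly inside H3K27me3, with a median width of 900 bp. Of the 14 HOXD regions wholly inside H3K27me3, 0 overlapped H3K4me1 (Wilson 95% interval 0 to 21.5%, counting error only), against 24.6% of these others (23.3 to 25.9). H3K4me3 overlapped 0 of the 14 (0 to 21.5%) and 4.96% of the others (4.35 to 5.67). H3K9ac overlapped 1 of the 14, or 7.14% (1.27 to 31.5), and 6.67% of the others (5.95 to 7.46). For H3K4me3 and H3K9ac the intervals overlap, but 14 regions are too few to tell shares this low apart. The 14 regions are neighbours in 1 cluster and not independent, so the intervals test no difference for any of these marks, H3K4me1 included.

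HOXD13, HOXD12 and HOXD8 ranked high in percent H3K4me2 cover of the window among genes covered by H3K27me3. The windows of 2055 protein-coding genes outside HOXD were covered by H3K27me3 over at least 90%. H3K4me2 lay in all 9 HOXD windows, which pass the same limit, and in 38.4% of these 2055, whose median cover was 0% and whose 90th percentile was 7.55%. Only 3 of the 2055 had a larger percent of the window under H3K4me2 than HOXD13, 8 a larger percent than HOXD12 and 21 than HOXD8. For HOXD9 the number was 130, for HOXD1 182, for HOXD11 213, for HOXD3 222, for HOXD10 331 and for HOXD4 603. Genes were not matched for window length, which was 11677 to 30570 bp in HOXD. A longer window gives a lower percent for the same covered length, so these ranks are not ranks of covered bp. The windows of HOXD13 and HOXD12 share an H3K4me2 region of 2850 bp, and none of the H3K4me2 of HOXD12 lay in its span. Their ranks are therefore not separate observations. Genes were not matched for closeness of neighbours either, and 1 HOXD member had no other protein-coding gene within 5 kb. H3K9ac was found at 2 of 9 HOXD genes and at 5.11% of the 2055, and H3K4me3 at 0 and 4.28%.

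The widest H3K4me2 region of the cluster, 2850 bp (176096251 to 176099100), lay between HOXD13 and HOXD12 in no annotated gene and crossed a break of 1000 bp in H3K27me3 (176097001 to 176098000). H3K4me2 covered the break completely, and the second H3K9ac region of the cluster (176097001 to 176097600, 600 bp) lay wholly inside it. The first H3K9ac region (176092801 to 176093550, 750 bp) began 80 bp downstream of the start of HOXD13 in the RefSeq promoter table (176092721), which lies inside its annotated span, under H3K27me3 and within an H3K4me2 region of 2400 bp (176092651 to 176095050). Of 83537 other breaks of up to 1 kb between H3K27me3 regions, 1.33% held H3K4me2 (1.25 to 1.41) and 0.119% held H3K9ac (0.0974 to 0.144). These others were not matched to the break in length or in surrounding H3K4me2, so the shares are given as description only. The other break inside the cluster, 500 bp between HOXD8 and HOXD4 (176141501 to 176142000), held neither. Both H3K9ac regions are narrower than the median H3K9ac region of 900 bp.

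Promoter windows of 250 bp before to 50 bp after the start were available for 8 members, all on the plus strand, from RefSeq (GRCh38.p14). All 8 lay entirely under H3K27me3, against 23.6% of all 22132 protein-coding promoter windows with any H3K27me3. H3K4me2 overlapped the window of 3 members, HOXD13 (120 bp), HOXD11 (300 bp) and HOXD1 (233 bp), against 58.3% of all windows. Within 1 kb of the start, 6 members had H3K4me2, against 67.1% of all, and the 2 without were HOXD10, 6323 bp from the nearest H3K4me2, and HOXD4, 6501 bp from it. The group most like these 8 is the 4879 windows outside HOXD that lay wholly under H3K27me3. Of those, 1330 overlapped H3K4me2 and 1532 had it within 1 kb of the start. H3K27me3 was within 1 kb of 25.9% of all starts. H3K9ac overlapped 0 of the 8 windows (47.7% of all) and lay within 1 kb of the start of HOXD13 alone (55.2% of all). H3K4me3 overlapped 0 of the 8 (42.0% of all) and lay within 1 kb of 0 (51.6% of all). The nearest H3K4me3 was 80833 bp away for HOXD1 and farther for the others.

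The sequences of 5 promoter windows are printed to set those that overlap H3K4me2 (HOXD13, HOXD11 and HOXD1) beside the pair without it nearby (HOXD10 and HOXD4). They run 5′ to 3′ on the plus strand, from chr2:176092471-176092770, chr2:176107030-176107329, chr2:176188418-176188717, chr2:176116528-176116827 and chr2:176151300-176151599, and capitals mark each CG dinucleotide, the site of DNA methylation, whose clusters form CpG islands.
HOXD13: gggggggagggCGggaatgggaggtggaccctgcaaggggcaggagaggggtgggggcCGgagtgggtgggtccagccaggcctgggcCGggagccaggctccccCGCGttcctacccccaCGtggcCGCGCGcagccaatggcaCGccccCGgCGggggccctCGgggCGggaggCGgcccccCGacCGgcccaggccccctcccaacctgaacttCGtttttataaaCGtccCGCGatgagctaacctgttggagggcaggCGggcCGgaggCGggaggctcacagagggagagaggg
HOXD11: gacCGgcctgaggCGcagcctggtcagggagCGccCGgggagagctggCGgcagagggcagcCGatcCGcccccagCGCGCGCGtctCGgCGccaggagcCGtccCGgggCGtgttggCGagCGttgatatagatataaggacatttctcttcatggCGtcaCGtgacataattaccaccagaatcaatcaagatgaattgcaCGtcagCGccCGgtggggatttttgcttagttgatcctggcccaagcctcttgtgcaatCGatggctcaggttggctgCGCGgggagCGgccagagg
HOXD1: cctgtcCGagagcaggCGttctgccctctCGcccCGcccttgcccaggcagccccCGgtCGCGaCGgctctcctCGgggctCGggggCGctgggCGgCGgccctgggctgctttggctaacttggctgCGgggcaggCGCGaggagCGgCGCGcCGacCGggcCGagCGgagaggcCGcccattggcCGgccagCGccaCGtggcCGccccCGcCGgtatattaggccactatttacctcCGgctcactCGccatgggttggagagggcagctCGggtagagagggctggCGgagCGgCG
HOXD10: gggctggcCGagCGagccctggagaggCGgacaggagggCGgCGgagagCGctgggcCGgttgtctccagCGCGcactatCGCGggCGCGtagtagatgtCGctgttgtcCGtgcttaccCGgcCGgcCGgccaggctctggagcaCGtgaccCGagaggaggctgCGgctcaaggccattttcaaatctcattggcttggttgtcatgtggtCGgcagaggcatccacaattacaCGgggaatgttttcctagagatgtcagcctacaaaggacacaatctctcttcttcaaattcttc
HOXD4: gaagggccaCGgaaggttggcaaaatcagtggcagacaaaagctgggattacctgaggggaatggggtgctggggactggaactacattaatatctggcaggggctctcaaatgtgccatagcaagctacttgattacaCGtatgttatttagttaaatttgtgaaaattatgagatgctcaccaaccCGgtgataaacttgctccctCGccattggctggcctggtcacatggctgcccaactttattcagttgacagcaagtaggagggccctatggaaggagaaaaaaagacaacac

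The windows with H3K4me2 hold 24 (HOXD13), 27 (HOXD11) and 36 (HOXD1) CG, that of HOXD10 23 and that of HOXD4 4. CG reads the same on both strands and was counted without overlap. Of all protein-coding windows, 16.4% hold at least 36 CG, 36.5% at least 27, 43.8% at least 24, 46.2% at least 23 and 85.5% at least 4. The remaining windows held 34 (HOXD8), 25 (HOXD3) and 19 CG (HOXD12), each with H3K4me2 within 1 kb. HOXD4 was thus the only CG-poor window of the 8, and HOXD10 was without H3K4me2 at a CG count close to that of HOXD13.

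Outside HOXD, 4879 protein-coding promoter windows lay wholly under H3K27me3. The 1532 with H3K4me2 within 1 kb had a median of 27 CG, and the 3347 without it a median of 6. The share with H3K4me2 was 4.73% (3.76 to 5.93) of windows with 0 to 4 CG, 15.8% (13.5 to 18.5) with 5 to 9, 35.1% (31.9 to 38.4) with 10 to 19, 50.5% (46.9 to 54.0) with 20 to 29 and 66.0% (63.0 to 68.9) with 30 or more. HOXD4 belongs to the first of these classes and HOXD10 to the fourth. Some genes have several windows, so the windows are not independent.

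**Figure D3:**
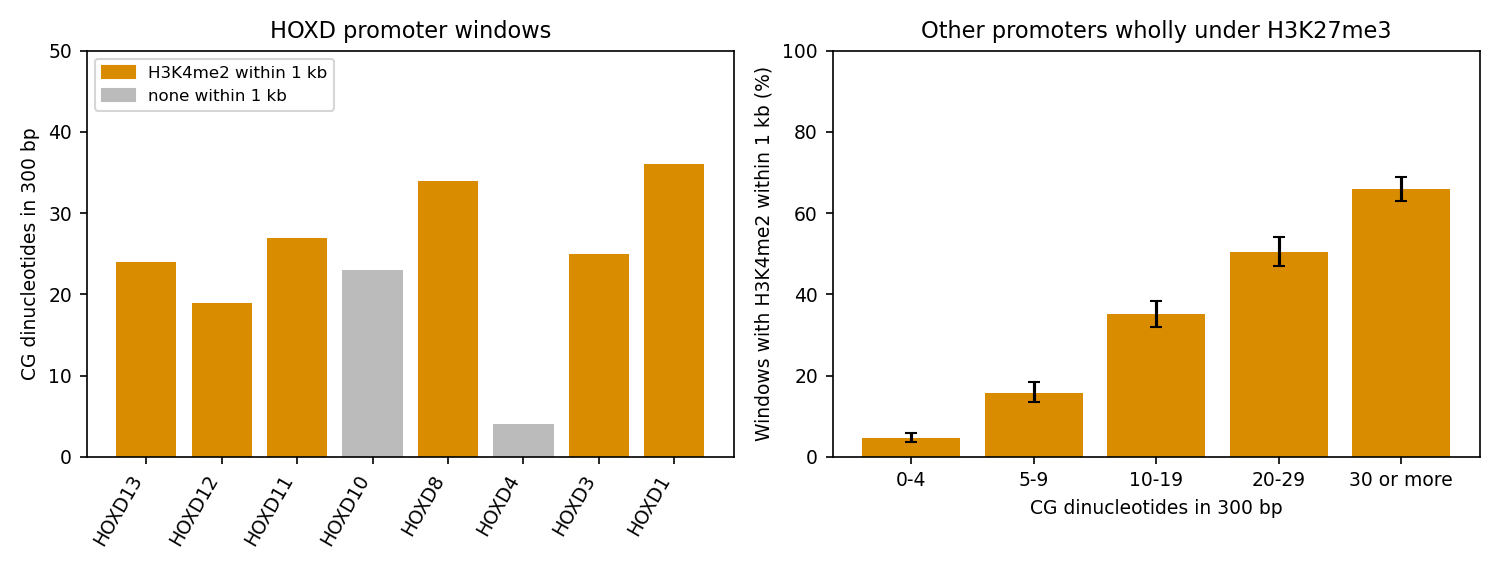
Left, number of CG in the 300 bp promoter window of 8 HOXD genes, coloured by whether H3K4me2 lies within 1 kb of the start; right, percent of 4879 other promoter windows wholly under H3K27me3 that have H3K4me2 within 1 kb, by number of CG, with Wilson 95% intervals. HOXD4, with 4 CG, and HOXD10, with 23, are the bars without H3K4me2, and the share on the right is 4.73% in the lowest class and 66.0% in the highest.

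Non-coding genes in the cluster shared its state, and several of them held H3K4me2. H3K27me3 covered 100% of HAGLR, HAGLROS, HOXD-AS2, LOC100129455, LOC401021, MIR10B and MIR7704. H3K4me2 covered 100% of HAGLROS (176178166 to 176179009), 55.3% of HOXD-AS2, 41.7% of LOC100129455, 28.6% of LOC401021 and 17.1% of HAGLR, a long non-coding RNA on the strand opposite to the HOXD genes. The start of HAGLROS lies close to a HAGLR start on the opposite strand, and both share the region of 1650 bp at 176177401 to 176179050. None of the 7 had H3K4me3, H3K9ac or H3K79me2 in its span. MIR10B (176150303 to 176150412), which lies just upstream of HOXD4 whose 5′ arm product miR-10b-5p is known to repress HOXD10 in breast cancer cells, had no H3K4me2 in its span. H3K4me2 was not called within 5 kb of it either. The product of the 3′ arm of its hairpin, miR-10b-3p, is not that repressor and has another seed; it is printed from RefSeq with its seed (bases 2 to 8) in capitals, to identify the hairpin in the H3K4me2-free stretch beside HOXD4.
miR-10b-3p: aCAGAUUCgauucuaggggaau

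The H3K27me3 of the cluster was part of a domain that ran to the neighbouring active genes. It extended from 176006501 to 176261500 (255000 bp) in 7 regions with 98.04% cover. The 3 regions that touch the cluster were 90500, 43500 and 73500 bp wide, and 84, 1194 and 220 of 117702 H3K27me3 regions in the genome were wider. The domain began 3680 bp beyond the end of LNPK, which encodes a protein of the endoplasmic reticulum, and ended 7941 bp before MTX2, which encodes a protein of mitochondrial import. EVX2, a homeobox gene next to HOXD13, was inside it, with 100% of its window under H3K27me3 and 3750 bp of H3K4me2. LNPK and MTX2 had 0% of their spans under H3K27me3, and the H3K36me3/H4K16ac set over 58.9% and 21.2%. The first H3K4me3 beyond HOXD1 was a region of 1050 bp at the start of MTX2 (176269501 to 176270550).

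Beyond these neighbours the deserts were also mostly under H3K27me3. Both are known in the mouse to hold enhancers of the cluster, those for the digits on the HOXD13 side and those for the forearm on the HOXD1 side. The centromeric desert, 742171 bp between ATP5MC3 and LNPK, was covered over 87.9% by 48 H3K27me3 regions, and the telomeric desert, 874768 bp between MTX2 and HNRNPA3, over 87.5% by 55. In 669 other stretches of at least 500 kb without protein-coding genes the median cover was 27.95% (quartiles 9.09% and 60.9%), and 23 of the 669 were covered more than the centromeric desert, and 23 more than the telomeric one. In bins of 10 kb, H3K27me3 covered at least 90% of 56 of 74 bins in the centromeric desert and of 70 of 87 in the telomeric one, and less than 50% of 7 centromeric and 6 telomeric bins. The lowest centromeric bins were the first, beside ATP5MC3, with 2.1% cover, and one in the interior with 2.9%.

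H3K4me1 and H3K27ac, found at enhancers, covered little of either desert, as of the other stretches. H3K4me1 covered 0.0808% of the centromeric and 0.206% of the telomeric desert, against a median of 0.0416% in the 669 other stretches, of which 41.55% and 26.5% had more. H3K27ac covered 0% of the centromeric and 0.0857% of the telomeric desert, against a median of 0%, and 12.6% and 5.38% of the others had more. The centromeric desert held a single stretch with H3K4me1, at 175373101 to 175373700, which overlapped an H3K4me2 region (175373251 to 175373700), and 2 further H3K4me2 regions. One of these lay at 175575601 to 175576200, and the other (175180051 to 175182450) reached 740 bp into the desert from ATP5MC3. In the telomeric desert 2 H3K4me2 regions lay inside H3K27me3, at 176553601 to 176554800 and at 176637301 to 176638350. The second of these overlaps the non-coding genes LINC01116 and LINC01117. The other 5 lay in its last part, next to HNRNPA3, together with all of its H3K4me1, H3K9ac and H3K27ac. The single H3K27ac region there (177211651 to 177212400) ended 393 bp before HNRNPA3, which encodes an RNA-binding protein, and the last 4 bins had no H3K27me3. Without 50 kb at each end, the telomeric desert had 93.2% H3K27me3, 0.465% H3K4me2 and no H3K9ac or H3K27ac.

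**Figure D4:**
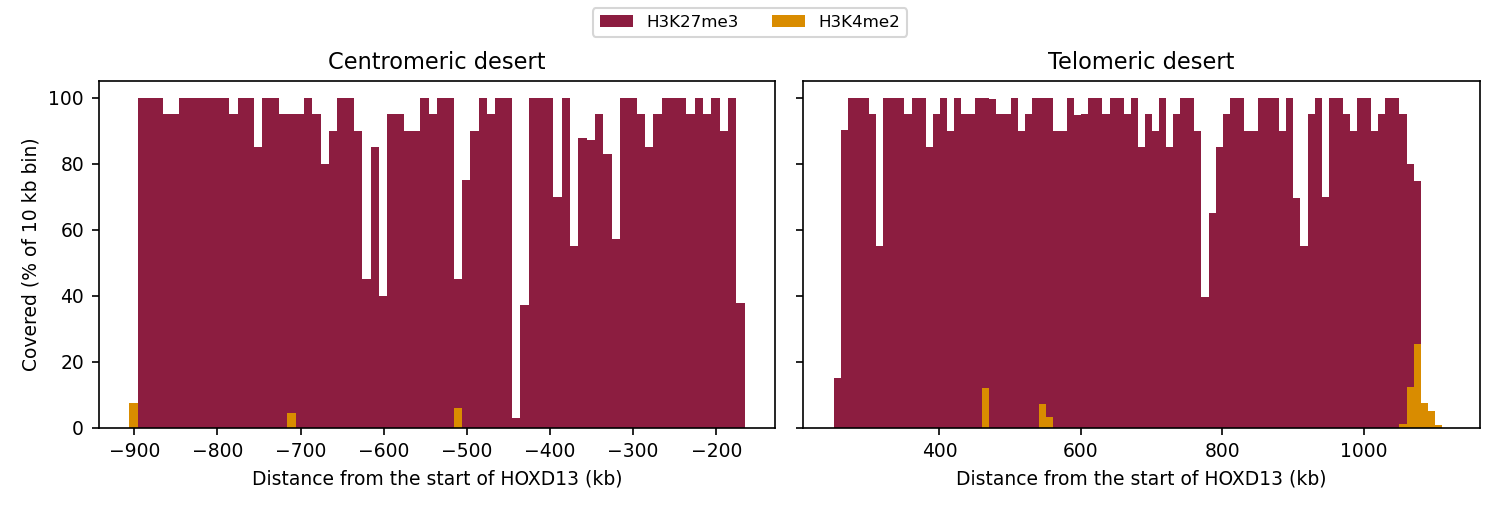
Percent of each 10 kb bin covered by H3K27me3 and H3K4me2 in the deserts on both sides of the cluster, against distance from the annotated start of HOXD13 in kb, 1 library per mark. Median H3K27me3 cover of a bin is 95% in each desert, and H3K4me2 rises in the last bins of the telomeric desert, where H3K27me3 ends.

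Taken whole, the other HOX clusters were in different states. H3K27me3 covered 98.55% of HOXD, against 0% of HOXA, 65.8% of HOXB and 78.7% of HOXC. H3K4me2 covered 16.1% of HOXD, 44.7% of HOXA, 13.3% of HOXB and 30.5% of HOXC. Part of HOXB was like HOXD. The windows of HOXB7, HOXB8 and HOXB9 each had 100% H3K27me3 cover and no H3K4me3 or H3K9ac. Their H3K4me2 cover was 9.79%, 16.2% and 19.7%, and their H3K4me1 cover 2.18%, 2.32% and 0%. HOXC was nearest to HOXD in H3K27me3 and like it without H3K4me3, but H3K4me1 covered 13.2% of HOXC and 0% of HOXD, and H3K4me1 was in the windows of 8 of 9 HOXC genes and 0 of 9 HOXD genes. With 1 library per mark and 1 cluster of each kind these differences could not be tested.

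Paralogues, the genes at the same place in each cluster, are compared next in H3K27me3 and then H3K4me2 cover of their windows. HOXD13 had 94.6% H3K27me3 and 39.0% H3K4me2 cover, against 0% and 90.5% for HOXA13, and 100% and 0% for both HOXB13 and HOXC13. HOXD12 had 92.1% and 32.7%, and HOXC12 100% and 21.0%. HOXD11 had 100% and 7.34%, against 0% and 58.8% for HOXA11 and 93.1% and 29.96% for HOXC11. HOXD9 had 100% and 11.05%, HOXB9 100% and 19.7%, HOXC9 79.7% and 26.0%, and HOXA9, a gene of blood progenitors, 0% and 98.9%. HOXD4 had 100% and 1.51%, against 0% and 3.74% for HOXA4, 0% and 31.5% for HOXB4 and 80.7% and 25.9% for HOXC4. EVX2 had 100% and 22.7%, and EVX1, beside the HOXA cluster, 92.0% and 25.95%.

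**Figure D5:**
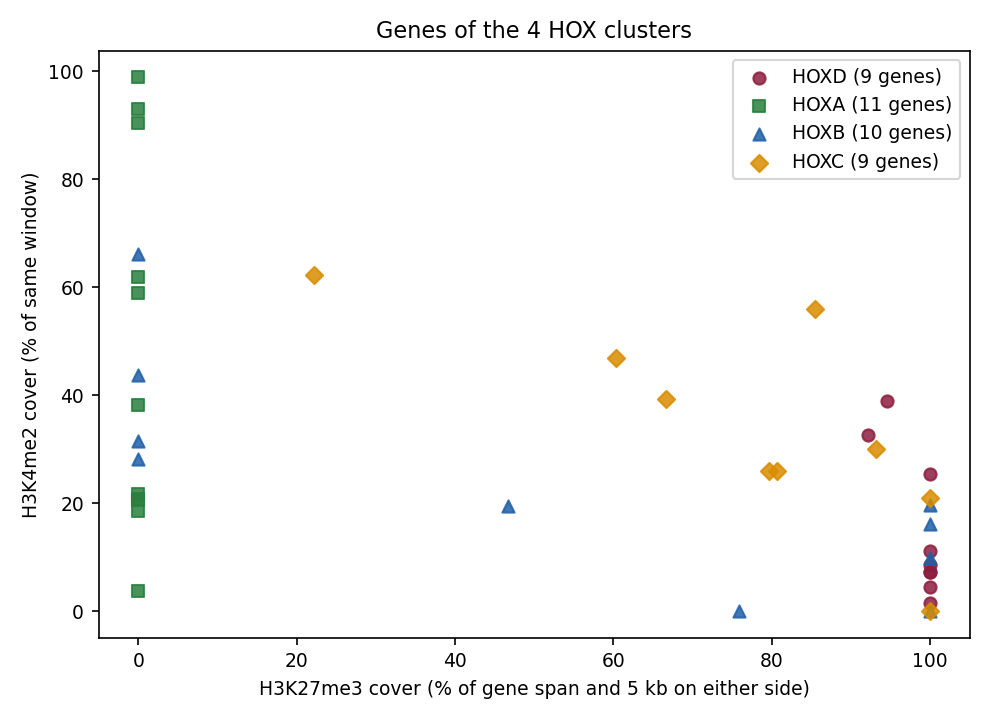
H3K27me3 cover (x axis) against H3K4me2 cover (y axis), both in percent of a gene's span and 5 kb on either side, for each gene of the 4 HOX clusters, 1 library per mark. HOXD genes lie between 92.1% and 100% H3K27me3 and HOXA genes at 0%, 4 HOXB genes lie at 0% and 4 at 100%, and HOXC genes range from 22.2% to 100%.

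Promoter windows of the HOXD and HOXA genes were similar in CG number and unlike in H3K27me3. The 8 HOXD windows had a median of 24.5 CG, and the 16 available windows of 9 HOXA genes a median of 21.5. H3K27me3 overlapped 8 of 8 HOXD and 0 of 16 HOXA windows. H3K4me2 overlapped 3 of 8 HOXD and 8 of 16 HOXA windows, and H3K4me3 lay within 1 kb of the start for 0 of 8 and 7 of 16. Many of the HOXA windows belong to HOXA3 alone, several of them without these marks, so the HOXA median and counts are not per gene. Counted by gene over the span and 5 kb, H3K4me3 was at 9 of 11 HOXA genes and 0 of 9 HOXD genes.

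Genes of the proteins that place, read and oppose H3K27me3 carried active marks. H3K4me3 was in the windows of 27 of 27 Polycomb genes and 7 of 7 genes of HOX activators, KMT2A, MEN1 and DOT1L among them, against the 58.4% of all genes given above. H3K36me3/H4K16ac covered a median of 37.3% and 61.03% of their windows, with 46.2% at EZH2, the H3K27 methyltransferase, 76.99% at SUZ12 and 53.9% at EED, its partners. H3K27me3 was at 8 of 27 Polycomb genes, or fewer than the 44.4% of all genes, with the most at CBX6 (35.1%), CBX7 (26.35%) and BMI1 (22.8%), each of which also had H3K4me3. HOX cofactors are homeobox proteins that bind DNA together with HOX proteins. Of their genes, MEIS1, MEIS2, PBX2, PBX3 and PKNOX1 had H3K4me3, 5 of 9, which is close to the 58.4% of all genes. H3K27me3 covered 97.5% of the window of PKNOX2 and 96.6% of that of MEIS3, neither of which had H3K4me3.

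The genes most like the HOXD genes were named by the smallest sum of absolute differences, over the 8 sets, from the median cover of the 9 members, which was 100% H3K27me3, 8.58% H3K4me2 and 0% of the other 6 sets. CDK5R2, which encodes a neuronal activator of a kinase, differed by 0.172 percentage points. SOD3, an extracellular superoxide dismutase, followed at 0.262, DLX5, a homeobox gene of limb and jaw, at 0.266, GPR50 at 0.283, LYNX1-SLURP2 at 0.293 and LOC100129098 at 0.488. All 6 had 100% H3K27me3, H3K4me2 of 8.09% to 8.84% and no other set. HOXD13 and HOXD12, with 39.0% and 32.7% H3K4me2, lie far from this median.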

How the data were processed

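Of KBM-7 cells, 9 marks and 3 inputs were assayed, 1 library each. The authors deposited called intervals only; cutadapt, Bowtie2, MACS and the build GRCh38 appear in the submitters' processing notes. Their versions and thresholds and any filters were not given in the sources used here. Depth is unknown, so no interval, floor or test over reads was possible.

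Deposited starts with remainder 1 on a 50 bp grid were read as 1-based and the rest as 0-based, and overlapping or adjacent intervals of a set were joined into regions. A gene counted as holding a set from 1 bp in its RefSeq (GRCh38.p14) span and 5 kb on either side, on chromosomes 1 to 22 and X. Strands and starts came from the RefSeq promoter table; of 9 members 8 matched. Deserts were the nearest stretches of at least 200 kb without protein-coding genes; the stretches compared with them, of at least 500 kb, excluded those with an interval-free run of 1 Mb or more. Wilson 95% intervals cover counting error only. The file also has 1 label that belongs to no listed sample, left out here, and a name for stretches without any interval. Inputs entered no comparison. A single cofactor gene is not reported here.

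Genes named were the 9 members, non-coding genes in the cluster, genes up to the far edges of the deserts, paralogues, and fixed lists of cofactor, Polycomb and activator genes. Members and lists were chosen with earlier results of these data known. Cover functions were tested on simulated intervals. Alternatives were other windows, wider regions, a minimum of 500 bp, joined gaps, starts as deposited, trimmed deserts and isolated genes. Python 3.11.15, numpy 2.4.6, pandas 2.3.3 and scipy 1.17.1 were used.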

Additional observations from a re-analysis of the deposited data

How the results depend on the processing

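H3K27me3 was at 9 of 9 HOXD genes, and H3K4me3, H3K27ac, H3K4me1, H3K79me2 and H3K36me3/H4K16ac at 0, under all 6 alternatives tried for these counts. H3K4me2 was at 5 genes within gene spans alone and at 4 among wider regions (not narrower than the set's median), and H3K9ac at 1 and 0. Among wider regions H3K4me2 covered 8.27% of the cluster and H3K9ac 0%. With gaps of up to 1 kb joined, H3K27me3 covered 100% of the cluster, 90.88% of the centromeric and 90.88% of the telomeric desert; among wider regions it covered 81.8% and 82.5% of the deserts. Wider regions left 0.0997% H3K4me2 and 0% H3K4me1 in the centromeric desert and 0% H3K36me3/H4K16ac in the telomeric one. Without 50 kb at each end the telomeric desert had 93.2% H3K27me3, 0.465% H3K4me2, 0.0581% H3K4me1, and 0% H3K4me3, H3K9ac, H3K27ac, H3K79me2 and H3K36me3/H4K16ac. Among 8948 genes with no other within 5 kb, background shares were 56.8% for H3K27me3, 68.9% for H3K4me2, 45.05% for H3K4me3, 49.3% for H3K9ac, 7.71% for H3K27ac, 46.4% for H3K4me1, 34.7% for H3K79me2 and 40.8% for H3K36me3/H4K16ac. Promoters with H3K4me2 numbered 6 of 8 within 1 kb of the start, an alternative chosen after seeing the data. Covers of single members were recomputed 27 times per set with other windows. For H3K27me3 0 of 27 changed by over 1.5-fold, for H3K4me2 10 (4 higher, 6 lower) and for H3K9ac 3 (1 higher, 2 lower). H3K4me2 at HOXD9 was 27.04% of the span alone, at HOXD1 14.5% with 2.5 kb, and at HOXD11 and HOXD10 13.3% and 10.25% with 10 kb, so the order of members in H3K4me2 depends on the window. No paired analysis was possible because each mark has 1 library. Depth is unknown, so a mark without a call in the cluster may be below what its library could show.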
